A study of Mus musculus with 23 samples.

Results

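The genes described here separate the myeloma lines VQ-D1 and VQ-D4 from the myeloma lines VQ-D2 and VQ-D5. A gene was taken as a member when edgeR's adjusted p was under 0.05, with the same direction, in each of the 4 line pairs VQ-D1 minus VQ-D2, VQ-D1 minus VQ-D5, VQ-D4 minus VQ-D2 and VQ-D4 minus VQ-D5. Of 12867 genes tested, out of 24063 listed, 2975 were members: 1366 were higher in VQ-D1 and VQ-D4 (10.6% of tested genes) and 1609 were higher in VQ-D2 and VQ-D5 (12.5%). The lines had been paired because their profiles resemble each other, and the members were then chosen on the same values. Each difference between the 2 pairs of lines is therefore given as a description, with its standard error (SE) and no p-value. Tests on members are reported only for t-VK12653 against control and between tissues.

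The VQ lines carry a Vκ*MYC transgene, a Cre-activated NrasLSL Q61R/+ allele and IgG1-Cre. The line t-VK12653 carries Vκ*MYC alone, and the controls carry IgG1-Cre alone. Per the labels, VQ-D1 is represented by 2 bone marrow and 2 spleen libraries, and VQ-D4 by 4 libraries, of which 1 came from spleen, 1 from lymph node, 1 from liver and 1 from bone marrow. VQ-D2 is represented by 2 spleen and 2 lymph node libraries, and VQ-D5 by 2 bone marrow and 2 lymph node libraries. The comparison groups are t-VK12653, with 2 bone marrow and 2 spleen libraries, and the controls, with 3 bone marrow libraries. Each tumour line descends from 1 donor and was grown in transplanted recipients, so its 4 libraries are repeats of 1 tumour and not of a genotype. In an exact permutation test over lines, 2 against 2, the smallest two-sided p is 0.333, so such a test could not pass a threshold. The ages and sexes of the mice are not given in the labels.

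Plasma cells are the antibody-secreting end stage of B cell development and are recognised by the surface proteoglycan CD138 and loss of the B cell isoform B220. They leave the cell cycle, switch to the transcription factors IRF4, BLIMP1 and XBP1, and expand the endoplasmic reticulum to fold immunoglobulin. Multiple myeloma is the cancer of these cells. In the Vκ*MYC mouse, MYC is switched on in germinal-centre B cells as antibody genes mutate. RAS mutations are common in human myeloma and feed the ERK cascade, which transmits growth signals. Human tumours also differ by whole-chromosome gains and losses, by cyclin D expression and by how many cells divide.

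The 8 VQ-D1 and VQ-D4 libraries held 3179578 to 10047314 counts (median 6261692), and the 8 VQ-D2 and VQ-D5 libraries held 4141275 to 8756143 (median 5517316). The ribosomal precursor Rn45s took 17.1% to 21.7% of counts in VQ-D1 and VQ-D4, against 16.6% to 21.5% in VQ-D2 and VQ-D5. The labelled cell type was checked against 11 plasma cell genes. Their summed level was 6051 to 8443 CPM (counts scaled to a common library total) in VQ-D1 and VQ-D4, against 4805 to 6189 CPM in VQ-D2 and VQ-D5 and 35050 to 65070 CPM in the controls. Most of the control sum was Igj, the antibody J chain gene, with a mean of 40130 CPM. Without Igj the means of the other 10 genes summed to 5692 CPM in VQ-D1 and 8046 CPM in VQ-D4, against 4030 CPM in VQ-D2, 5051 CPM in VQ-D5 and 6884 CPM in the controls. Genes of other cells were low in most libraries but not in all. The summed level of 16 neutrophil genes was 7.14 to 1238 CPM in VQ-D1 and VQ-D4, highest in VQ-D1 replicate 1, against 4.45 to 143 CPM in VQ-D2 and VQ-D5, and none of the 16 was a member. The liver library VQ-D4 replicate 2 held 734 CPM of the endothelial gene Cdh5, which was at or below 1.23 CPM in the other VQ libraries. Leaving out VQ-D1 replicate 1 together with the liver library VQ-D4 replicate 2 gave 1321 members higher in VQ-D1 and VQ-D4 and 1505 higher in VQ-D2 and VQ-D5.

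Levels below are CPM scaled by TMM, a method that sets libraries on a common scale through genes that change little. Where FPKM is named, it is the deposited value, scaled by depth and gene length. Differences are log2 values, the mean of VQ-D1 and VQ-D4 minus the mean of VQ-D2 and VQ-D5 with lines weighted equally, from a fit that also holds a tissue term. Library values are given in replicate order within each line. The median absolute log2 difference was 1.25 in each set of members. The smallest of the 4 line differences was at least 2-fold for 584 members higher in VQ-D1 and VQ-D4 and for 666 higher in VQ-D2 and VQ-D5. It was at least 8-fold for 138 and 147. The 8 libraries of each side did not overlap for 1094 of the 1366 members and for 1401 of the 1609. Over all tested genes, 9.55% were higher without overlap in VQ-D1 and VQ-D4 and 12.5% in VQ-D2 and VQ-D5. Close to the threshold, Ppp1r16a and Snx30 were the last members, with a largest adjusted p of 0.0499 each. Ptgr1 (0.0500456) and Mob1b (0.0501) were the first genes left out. In bulk RNA, fewer cells expressing a gene and less RNA per cell cannot be told apart.

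The leading members higher in VQ-D1 and VQ-D4, taken by the largest smallest line difference, included the surface protein gene Ly6d, the sulfotransferase gene Chst1 and receptors for semaphorins and ephrins. Ly6d was at 557, 527, 544 and 513 CPM in the VQ-D1 libraries and 342, 147, 289.7 and 260.3 CPM in the VQ-D4 libraries, against 0.149, 0.29, 0.194 and 0.431 CPM in the VQ-D2 libraries and 0, 0.689, 0.131 and 0.583 CPM in the VQ-D5 libraries. Ly6d (chromosome 15, 74762056 to 74763567) encodes a GPI-anchored surface protein that marks early commitment to the B lineage. All 8 VQ-D1 and VQ-D4 libraries lay above 100 CPM and all 8 VQ-D2 and VQ-D5 libraries below 1 CPM, and the log2 difference was 10.15 (SE 0.19). Chst1 was at 1534, 1603, 1641 and 1642 CPM in the VQ-D1 libraries and 462, 411, 417 and 382 CPM in the VQ-D4 libraries, against 0.149, 1.3, 0.582 and 1.73 CPM in the VQ-D2 libraries and 1.2, 1.15, 0.393 and 0.933 CPM in the VQ-D5 libraries. Chst1 (chromosome 2, 92599632 to 92615252) encodes a sulfotransferase of keratan sulfate, and its log2 difference was 9.77 (SE 0.28). The 4 VQ-D1 libraries were also above the 4 VQ-D4 libraries. The controls expressed both genes. Mean FPKM of Ly6d was 212 in the controls, 796.9 in VQ-D1 and 363 in VQ-D4, and that of Chst1 was 167, 615.4 and 151.

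Plxna4 was at 297, 313, 228 and 247 CPM in the VQ-D1 libraries and 263, 242, 236 and 268 CPM in the VQ-D4 libraries, against 0, 1.01, 0.194 and 0.216 CPM in the VQ-D2 libraries and 0.958, 0.23, 0.917 and 0.35 CPM in the VQ-D5 libraries. Plxna4 (chromosome 6, 32144543 to 32588192) encodes a semaphorin receptor of the plexin family. Its log2 difference was 9.04 (SE 0.26), and Plxna1, a receptor of the same family, differed by 8.43 (SE 0.29). Epha7 was at 35.3, 69.7, 135 and 206 CPM in the VQ-D1 libraries and 41.9, 67.3, 36 and 70.7 CPM in the VQ-D4 libraries, against 0, 0, 0 and 0 CPM in the VQ-D2 libraries and 0.719, 0.459, 0.131 and 0 CPM in the VQ-D5 libraries. Epha7 (chromosome 4, 28813066 to 28967503) encodes an ephrin receptor and had no read in any VQ-D2 library. The sialyltransferase gene St8sia6 had 53.9 to 249 CPM (median 126) in VQ-D1 and VQ-D4, against 0.145 to 0.918 CPM (median 0.418) in VQ-D2 and VQ-D5. Mean FPKM of St8sia6 was 84.82 in the controls, 68.95 in VQ-D1 and 17.92 in VQ-D4. For Plxna4 the controls were low, at 1.084 FPKM against 22.16 in VQ-D1 and 19.45 in VQ-D4. Ermn, which encodes a cytoskeletal protein known from myelinating cells, had 2048 reads in VQ-D1 and VQ-D4 and 1 read in VQ-D2 and VQ-D5. That is a ratio of 2043 at equal depth, with a 95% counting interval of 366 to 80733. Ncan, Phactr3, Samd4, Zyx, Spata6, Pitpnc1 and Txnrd3 were further leading genes.

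**Figure D1:**
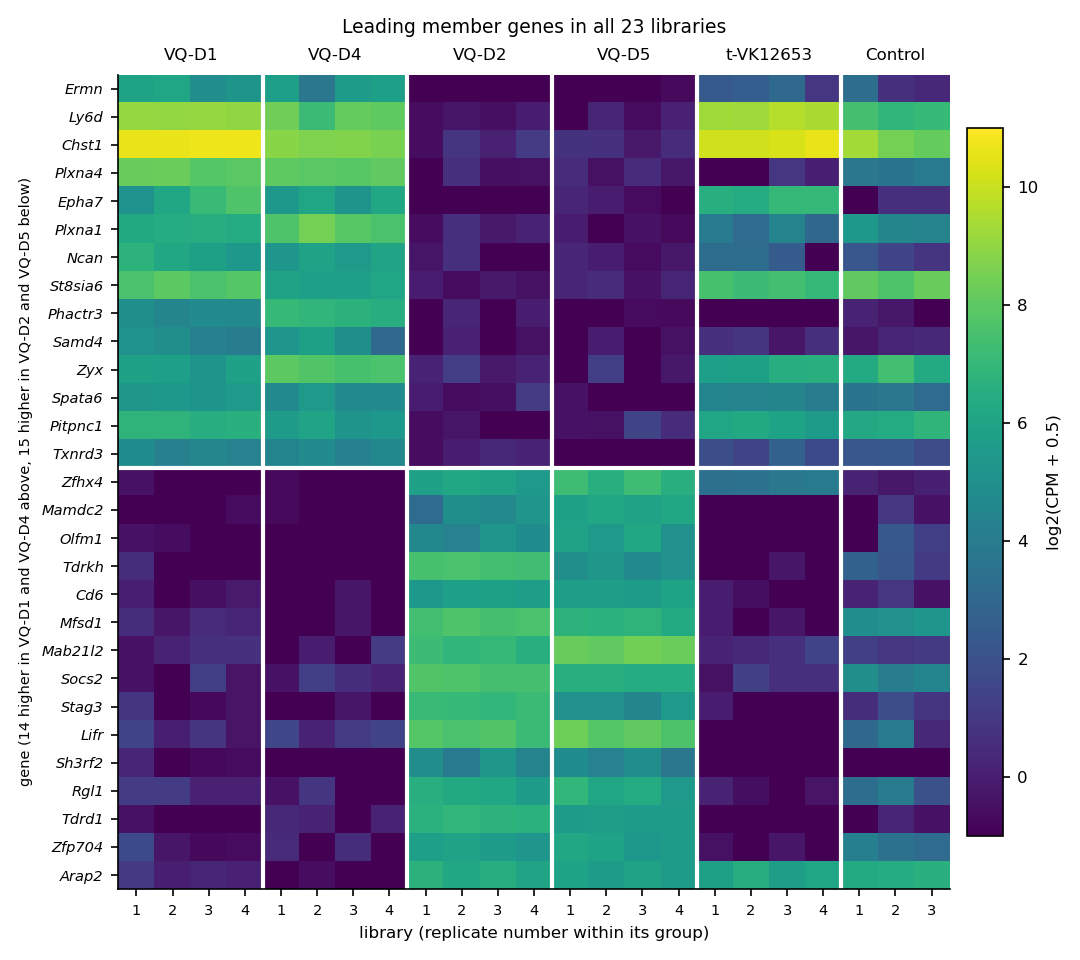
Level of 29 leading members in all 23 libraries. Columns are libraries by group, rows are genes, and colour is log2(CPM + 0.5). The 14 upper genes are bright in VQ-D1 and VQ-D4 and dark in VQ-D2 and VQ-D5, and the 15 lower genes show the reverse. Ly6d, Chst1 and Epha7 are also bright in t-VK12653, where Plxna4 and Phactr3 are dark.

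The leading members higher in VQ-D2 and VQ-D5 included the cytokine receptor gene Lifr and the JAK-STAT inhibitor gene Socs2. Lifr was at 2.22, 0.494, 1.26 and 0.279 CPM in the VQ-D1 libraries and 2.39, 0.619, 1.62 and 2.24 CPM in the VQ-D4 libraries, against 230.4, 189, 212 and 145 CPM in the VQ-D2 libraries and 324, 225, 268 and 197 CPM in the VQ-D5 libraries. Lifr (chromosome 15, 7090610 to 7197489) encodes the receptor for leukaemia inhibitory factor, which signals through the same gp130 chain as the IL-6 receptor. The log2 difference was -7.35 (SE 0.38), and the 2 sides were far from overlapping. Socs2 was at 0.247, 0, 1.84 and 0.279 CPM in the VQ-D1 libraries and 0.252, 1.86, 0.973 and 0.64 CPM in the VQ-D4 libraries, against 216, 207, 175 and 175 CPM in the VQ-D2 libraries and 92.7, 93.2, 85.5 and 86.5 CPM in the VQ-D5 libraries. Socs2 (chromosome 10, 95383903 to 95417321) is a feedback inhibitor of JAK-STAT signalling, and it differed by -7.73 (SE 0.30).

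Zfhx4 was at 0.247, 0, 0 and 0 CPM in the VQ-D1 libraries and 0.126, 0, 0 and 0 CPM in the VQ-D4 libraries, against 58, 73.9, 60.3 and 43.1 CPM in the VQ-D2 libraries and 156, 95.7, 152 and 91 CPM in the VQ-D5 libraries. Zfhx4 (chromosome 3, 5218218 to 5415861), a zinc finger homeobox gene, had 2 reads in all of VQ-D1 and VQ-D4 and 4424 in VQ-D2 and VQ-D5. Mfsd1 was at 0.987, 0.329, 0.87 and 0.697 CPM in the VQ-D1 libraries and 0, 0, 0.324 and 0 CPM in the VQ-D4 libraries, against 164, 209, 177 and 187 CPM in the VQ-D2 libraries and 109, 99.8, 111 and 81.6 CPM in the VQ-D5 libraries. Mfsd1 (chromosome 3, 67582768 to 67604231) encodes a lysosomal transporter, with a log2 difference of -9.06 (SE 0.22). Stag3, a cohesin subunit of meiosis, had 0 to 1.23 CPM (median 0.0483) in VQ-D1 and VQ-D4, against 22.5 to 144 CPM (median 82.5) in VQ-D2 and VQ-D5. The piRNA pathway genes Tdrkh and Tdrd1 differed by -10.33 (SE 0.41) and -8.63 (SE 0.26). Cd6, which encodes a lymphocyte scavenger receptor, had 0 to 0.494 CPM (median 0.0966) in VQ-D1 and VQ-D4, against 41.9 to 62.2 CPM (median 52) in VQ-D2 and VQ-D5. Mamdc2 and Olfm1 had 2 reads each in VQ-D1 and VQ-D4, against 2223 and 1909 reads in VQ-D2 and VQ-D5. Mab21l2, Sh3rf2, Rgl1, Zfp704 and Arap2 completed the 15 genes. Among them Tdrkh, Mfsd1, Mab21l2, Zfhx4 and Zfp704 lie on chromosome 3, and Stag3 and Arap2 on chromosome 5.

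The members were unevenly spread over the chromosomes. Positions were available for 99.5% of tested genes, from RefSeq on the build GRCm38.p6. On chromosome 5, 7 of 779 tested genes (0.899%) were members higher in VQ-D1 and VQ-D4, and 391 (50.2%) were higher in VQ-D2 and VQ-D5. On chromosome 3, 25 of 618 (4.05%) were higher in VQ-D1 and VQ-D4 and 156 (25.2%) in VQ-D2 and VQ-D5. Together these chromosomes held 10.9% of tested genes, 2.34% of the members higher in VQ-D1 and VQ-D4 and 34% of the members higher in VQ-D2 and VQ-D5. Chromosome 8 held 13 members higher in VQ-D1 and VQ-D4 (1.93% of 673 genes) and 124 higher in VQ-D2 and VQ-D5 (18.4%). Chromosome 15 leaned the other way, with 78 members higher in VQ-D1 and VQ-D4 (15.3% of 509 genes) and 33 higher in VQ-D2 and VQ-D5.

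**Figure D2:**
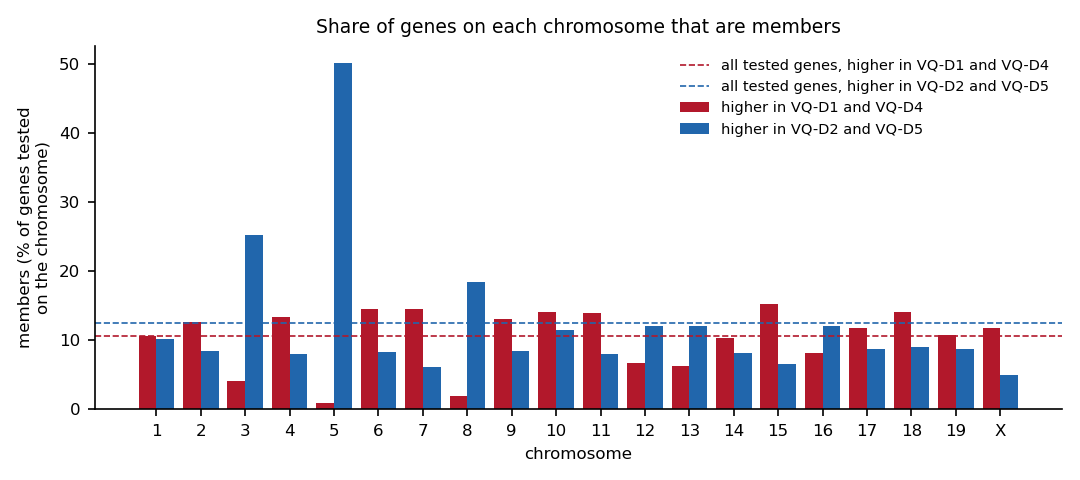
Share of the tested genes on each chromosome that were members. Red bars are members higher in VQ-D1 and VQ-D4, blue bars members higher in VQ-D2 and VQ-D5, and dashed lines the shares over all tested genes (10.6% and 12.5%). The blue bar reaches 50.2% on chromosome 5 and 25.2% on chromosome 3.

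The whole of chromosome 5 was shifted, not a few strong genes. The median log2 difference over its genes was -0.98, and 86.1% of them were lower in VQ-D1 and VQ-D4. Every one of the 14 windows of 10 Mb with at least 5 genes had a negative median. To see which lines moved, the median gene of each chromosome was set against the controls and against all other chromosomes, over genes with at least 20 CPM. On chromosome 5 this value was -0.94 ± 0.030 in VQ-D1 and -0.98 ± 0.010 in VQ-D4, against 0.041 ± 0.026 in VQ-D2 and 0.074 ± 0.014 in VQ-D5 (SD, n = 4 libraries each). On chromosome 3 it was 0.10 ± 0.035 in VQ-D1 and 0.063 ± 0.045 in VQ-D4, against 0.66 ± 0.017 in VQ-D2 and 0.60 ± 0.035 in VQ-D5. VQ-D1 and VQ-D4 thus lay below the controls on chromosome 5, while VQ-D2 and VQ-D5 lay above them on chromosome 3. The chromosome 3 shift spanned all windows in VQ-D2, with window medians of 0.26 to 1.39. In VQ-D5 the window medians ran from -0.25 to 2.32 and were raised mainly between 40 and 130 Mb.

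Chromosomes 8 and 15 separated single lines. Chromosome 8 was at -0.86 ± 0.025 in VQ-D1 and -0.028 ± 0.17 in VQ-D4, against 0.035 ± 0.039 in VQ-D2 and 0.037 ± 0.019 in VQ-D5. Chromosome 15 was at 0.13 ± 0.019 in VQ-D1 and 0.67 ± 0.032 in VQ-D4, against 0.037 ± 0.025 in VQ-D2 and 0.054 ± 0.014 in VQ-D5. The line without the Nras allele, t-VK12653, was at -0.29 ± 0.027 on chromosome 5 and -0.82 ± 0.032 on chromosome 8. It stood at 0.85 ± 0.027 on chromosome 7 and at -0.79 ± 0.025 on chromosome 14. DNA was not measured in these libraries, and whether the number of chromosome copies differs between the lines was not tested. Outside chromosomes 3 and 5 there remained 1334 members higher in VQ-D1 and VQ-D4 and 1062 higher in VQ-D2 and VQ-D5 of 11470 tested genes.

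**Figure D3:**
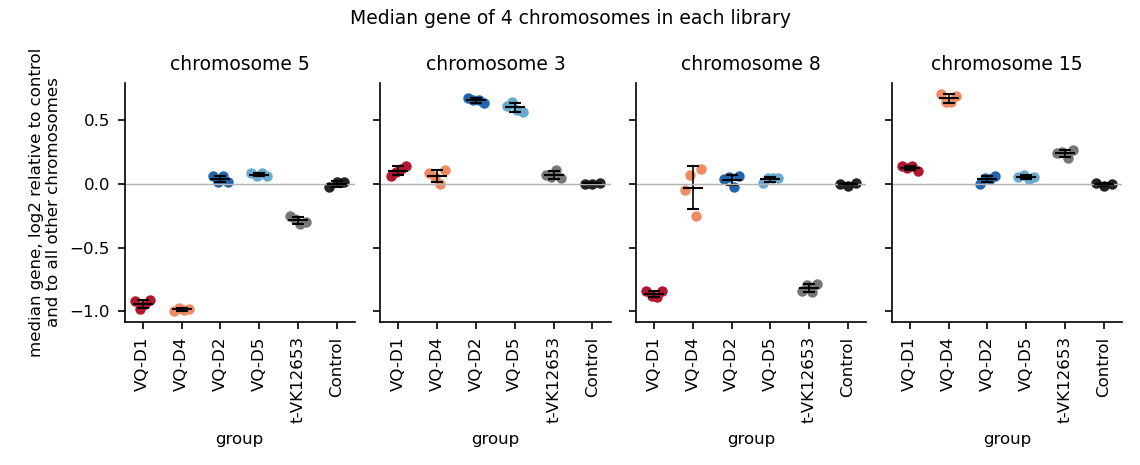
Median gene of chromosomes 5, 3, 8 and 15 in each of the 23 libraries, as log2 relative to the control mean and to all other chromosomes. Points are libraries, and bars are the mean and SD of each group. The VQ-D1 and VQ-D4 libraries lie near -0.94 and -0.98 on chromosome 5, and the VQ-D2 and VQ-D5 libraries near 0.66 and 0.60 on chromosome 3.

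Many genes of DNA replication, mitosis and ribosome assembly were higher in VQ-D2 and VQ-D5. Of 32 tested DNA replication genes, 0 were members higher in VQ-D1 and VQ-D4 and 18 were higher in VQ-D2 and VQ-D5, and the list's median log2 difference was -1.13, against 0.00296 over all tested genes. Off chromosomes 3 and 5 the count was 10 of 24. Of 30 mitosis genes, 0 were members higher in VQ-D1 and VQ-D4 and 16 in VQ-D2 and VQ-D5, with a median of -1.09, and off those chromosomes 13 of 27. Of 28 nucleolar and ribosome biogenesis genes, 0 were higher in VQ-D1 and VQ-D4 and 17 in VQ-D2 and VQ-D5, with a median of -0.63, and off those chromosomes 16 of 27. The list means of the 16 libraries did not overlap between the sides for any of these 3 lists. Relative to the control mean, the mean log2 level of the mitosis list was 0.56 to 1.49 in VQ-D1 and VQ-D4, against 1.77 to 2.48 in VQ-D2 and VQ-D5.

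Rfc5 was at 18.5, 22.1, 16 and 18.8 CPM in the VQ-D1 libraries and 10.7, 14.5, 8.76 and 15.4 CPM in the VQ-D4 libraries, against 71.8, 60.1, 52.4 and 60.0 CPM in the VQ-D2 libraries and 78.8, 76.7, 73.5 and 80.7 CPM in the VQ-D5 libraries. Rfc5 encodes a subunit of the clamp loader that seats PCNA on DNA, and it lies on chromosome 5. Gins2, part of the replicative helicase, had 6.67 to 13.9 CPM (median 9.64) in VQ-D1 and VQ-D4, against 27.4 to 41.3 CPM (median 37.3) in VQ-D2 and VQ-D5. Pole, the leading-strand polymerase, differed by -1.99 (SE 0.13), and Rfc1, the large clamp loader subunit, by -1.74 (SE 0.0714). Cdc20 was at 36.8, 43, 35.8 and 34.4 CPM in the VQ-D1 libraries and 36.1, 42.2, 63.9 and 58.2 CPM in the VQ-D4 libraries, against 118, 85.5, 88.6 and 89.1 CPM in the VQ-D2 libraries and 206, 206, 194 and 228 CPM in the VQ-D5 libraries. Cdc20 activates the anaphase-promoting complex, and all 8 VQ-D2 and VQ-D5 libraries lay above all 8 VQ-D1 and VQ-D4 libraries. Anln, a scaffold of the cleavage furrow, had 15 to 32.1 CPM (median 21) in VQ-D1 and VQ-D4, against 71.4 to 96.8 CPM (median 77) in VQ-D2 and VQ-D5. Cenpa, the centromeric histone, differed by -2.14 (SE 0.19), Hmmr, a spindle protein, by -1.63 (SE 0.16), and cyclin A2 (Ccna2) by -1.48 (SE 0.17). Ncl was at 2483, 2199.7, 2580.1 and 1900.1 CPM in the VQ-D1 libraries and 2282, 2064, 2569 and 2748 CPM in the VQ-D4 libraries, against 4324, 4089, 4037 and 3697 CPM in the VQ-D2 libraries and 4592, 5042, 4692 and 5086 CPM in the VQ-D5 libraries. Ncl encodes nucleolin, a major nucleolar protein, and it differed by -0.87 (SE 0.0856). Nolc1, its nucleolar partner in RNA polymerase I transcription, differed by -1.10 (SE 0.0635), and Polr1b, a subunit of that polymerase, by -0.77 (SE 0.0902).

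Short stretches upstream of transcription starts are shown for these groups, because the genes of each list moved together and each group has a textbook promoter element. All are from RefSeq on GRCm38.p6, written 5′ to 3′ on the gene's own strand, with the element in capitals. The genes shown are the list members with the element before the start and the largest smallest line difference, chosen after the values were seen. Elements were searched on both strands in windows of 250 bases before to 50 bases after the first listed start, available for 9609 tested genes. E2F elements, searched as TTTCCCGC, TTTGGCGC and TTTCGCGC, are the sites of the factors that switch on replication genes. They occurred in 6 of the 14 replication members with a window (42.9%), against 3.66% of all tested genes. Over all members higher in VQ-D2 and VQ-D5 the share was 5.01%. List genes that were no members were not counted, so the shares of list members do not describe the side difference. The E2F elements are shown for Rfc3, a clamp loader subunit, and Mcm5 and Mcm7, subunits of the replicative helicase.
Rfc3, chr5:151651209-151651242, minus strand: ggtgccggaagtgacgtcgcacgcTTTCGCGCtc
Mcm5, chr8:75109336-75109391, plus strand: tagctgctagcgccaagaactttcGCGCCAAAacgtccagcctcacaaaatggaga
Mcm7, chr5:138172017-138172072, minus strand: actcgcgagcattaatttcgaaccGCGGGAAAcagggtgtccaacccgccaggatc
Rfc3 had 4.49 to 9.76 CPM (median 7.63) in VQ-D1 and VQ-D4, against 15.3 to 26.5 CPM (median 19.1) in VQ-D2 and VQ-D5. Mcm5 had 42.7 to 82.2 CPM (median 62.5) in VQ-D1 and VQ-D4, against 106 to 184 CPM (median 142) in VQ-D2 and VQ-D5. Mcm7 had 17.6 to 62.4 CPM (median 46) in VQ-D1 and VQ-D4, against 95 to 129.9 CPM (median 118) in VQ-D2 and VQ-D5. None of these genes overlapped between the sides. The cell cycle homology region, searched as TTTGAA, is the element of genes that peak in mitosis. It was found in 10 of 13 mitosis members (76.9%), against 11.9% of all tested genes. The CCAAT box, searched as CCAAT, was found in 12 of those 13 (92.3%), against 39.5%. Over all members higher in VQ-D2 and VQ-D5 these shares were 13.5% and 38.3%. The mitotic genes shown are Cdc20, the spindle motor gene Kif11 and Cdk1, the kinase that drives entry into mitosis.
Cdc20, chr4:118437344-118437385, minus strand: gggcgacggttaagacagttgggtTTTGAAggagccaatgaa
Kif11, chr19:37376339-37376381, plus strand: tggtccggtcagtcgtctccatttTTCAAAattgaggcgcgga
Cdk1, chr10:69352913-69352951, minus strand: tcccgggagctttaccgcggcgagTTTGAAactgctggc
Kif11 had 118 to 182 CPM (median 155) in VQ-D1 and VQ-D4, against 228 to 325 CPM (median 294) in VQ-D2 and VQ-D5. Cdk1 had 22.5 to 64 CPM (median 41.5) in VQ-D1 and VQ-D4, against 64.7 to 142 CPM (median 111) in VQ-D2 and VQ-D5. The E-box CACGTG, the site bound by MYC with MAX, was found in 2 of 15 ribosome biogenesis members (13.3%), against 10.6% of all tested genes. It is shown for Nop2, a nucleolar RNA methyltransferase, with 51.8 to 123 CPM (median 81.5) in VQ-D1 and VQ-D4, against 155 to 196 CPM (median 163) in VQ-D2 and VQ-D5.
Nop2, chr6:125131799-125131852, plus strand: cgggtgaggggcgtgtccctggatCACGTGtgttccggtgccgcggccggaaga
A match of letters is a description of the window and does not show that a factor binds there.

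**Figure D4:**
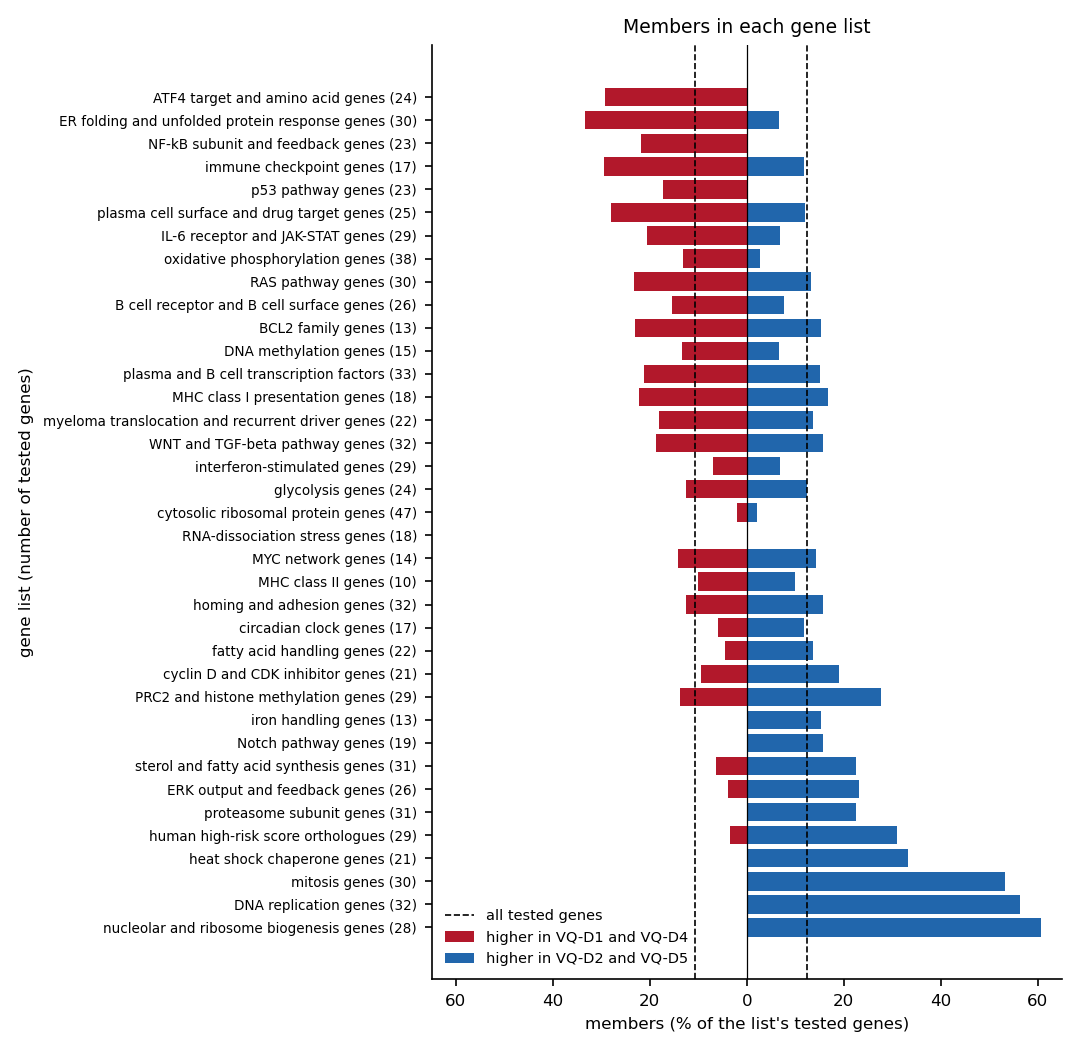
Share of the tested genes of each of the 37 gene lists that were members. Bars to the left are members higher in VQ-D1 and VQ-D4, bars to the right members higher in VQ-D2 and VQ-D5, dashed lines the shares over all tested genes (10.6% and 12.5%), and numbers in brackets the tested genes. The longest bars to the right are ribosome biogenesis (17 of 28), DNA replication (18 of 32) and mitosis (16 of 30), with no bar to the left.

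Chaperone and high-risk genes leaned to the same lines. Of 29 genes whose human orthologues enter high-risk scores of myeloma, 1 was higher in VQ-D1 and VQ-D4 and 9 in VQ-D2 and VQ-D5. Off chromosomes 3 and 5 the count higher in VQ-D2 and VQ-D5 was 7 of 27. Several of the 9, such as Rfc4 and Cdc20, are also counted in the replication or mitosis list, so this list is not separate from those. Of 21 heat shock chaperones, 0 were higher in VQ-D1 and VQ-D4 and 7 in VQ-D2 and VQ-D5. Among the 7 was Hspd1, the mitochondrial chaperonin, with 63 to 86.6 CPM (median 82.1) in VQ-D1 and VQ-D4, against 167 to 271 CPM (median 207) in VQ-D2 and VQ-D5. Of 31 proteasome subunits, 0 were higher in VQ-D1 and VQ-D4 and 7 in VQ-D2 and VQ-D5, but off chromosomes 3 and 5 the count was 3 of 27, near the 1062 of 11470 over all genes there. Fabp5 was at 0, 0, 0 and 0 CPM in the VQ-D1 libraries and 4.91, 1.55, 1.95 and 7.36 CPM in the VQ-D4 libraries, against 166, 164, 254 and 219.8 CPM in the VQ-D2 libraries and 118, 137, 123 and 172 CPM in the VQ-D5 libraries. Fabp5 (chromosome 3, 10012585 to 10016610) encodes a fatty acid carrier and is a member of the high-risk list. It had no read in VQ-D1. VQ-D4, at 3.94 CPM in the mean, lay near the 4.64 CPM of the controls, and reads of its copies elsewhere in the genome may be counted with it. Genes of the cytosolic ribosome itself did not follow, with 1 member in each direction among 47.

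Regulators of the cell cycle were members in both directions. Ccnd2 was at 1881, 1950.3, 2809.5 and 2323 CPM in the VQ-D1 libraries and 2789.9, 2114, 2534 and 2330.4 CPM in the VQ-D4 libraries, against 289, 388, 296 and 395 CPM in the VQ-D2 libraries and 24.4, 122, 45.7 and 174 CPM in the VQ-D5 libraries. Ccnd2 (chromosome 6, 127125162 to 127152188) encodes cyclin D2, one of the D cyclins used by human myeloma, and it differed by 3.81 (SE 0.51). Every VQ-D1 and VQ-D4 library lay above every VQ-D2 and VQ-D5 library. Cdk6, a kinase partner of D cyclins on chromosome 5, had 0 to 3.46 CPM (median 0.242) in VQ-D1 and VQ-D4, against 3.83 to 39.8 CPM (median 15.3) in VQ-D2 and VQ-D5. Cdk4, the other partner, differed by -0.96 (SE 0.0736). The CDK inhibitor gene Cdkn2b had 38 reads in VQ-D1 and VQ-D4 and 0 reads in VQ-D2 and VQ-D5. It was at least 12.6-fold higher in VQ-D1 and VQ-D4, with 3 counts over the group as the floor.

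Nras and several genes that ERK signalling switches on were higher in VQ-D2 and VQ-D5. Nras was at 41, 45.8, 36.4 and 46.1 CPM in the VQ-D1 libraries and 52.5, 51.1, 48.3 and 52.4 CPM in the VQ-D4 libraries, against 81.9, 78.2, 91 and 98.6 CPM in the VQ-D2 libraries and 116, 139.6, 114 and 129 CPM in the VQ-D5 libraries. Nras (chromosome 3, 103058285 to 103067914) encodes the RAS protein whose mutant allele all 4 VQ lines carry. It differed by -1.14 (SE 0.0857), and the sides did not overlap. Its chromosome, 3, was raised by 0.66 in VQ-D2 and 0.60 in VQ-D5 in the median gene, and the share of mutant and normal Nras RNA was not measured in these counts. Dusp6 was at 43.9, 24.4, 23.9 and 34.7 CPM in the VQ-D1 libraries and 17.1, 2.79, 22.1 and 8.31 CPM in the VQ-D4 libraries, against 211, 223, 225 and 169 CPM in the VQ-D2 libraries and 218, 126, 273 and 124 CPM in the VQ-D5 libraries. Dusp6 encodes the phosphatase that switches off ERK and is induced by it, and its log2 difference was -3.18 (SE 0.27). Etv5, an ERK-induced ETS factor, had 27.1 to 65.1 CPM (median 51.5) in VQ-D1 and VQ-D4, against 78.3 to 183 CPM (median 142) in VQ-D2 and VQ-D5. Spry4, a feedback inhibitor of RAS, had 15.3 to 83.4 CPM (median 39.6) in VQ-D1 and VQ-D4, against 132 to 247 CPM (median 181) in VQ-D2 and VQ-D5, and Etv1 had 0 to 23.5 CPM (median 0.48) in VQ-D1 and VQ-D4, against 24 to 57.4 CPM (median 38.1) in VQ-D2 and VQ-D5.

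In all, 1 of 26 tested ERK output genes, Spred3, was higher in VQ-D1 and VQ-D4, and 6 were higher in VQ-D2 and VQ-D5 (Etv1, Dusp6, Spry4, Etv5, Etv4 and Spred1). The list's median log2 difference was 0.28, of the opposite sign to most of its members. By line pair the median was -0.67 for VQ-D1 minus VQ-D2 and -1.09 for VQ-D1 minus VQ-D5, but 0.90 for VQ-D4 minus VQ-D2 and 1.69 for VQ-D4 minus VQ-D5. Egr1, an immediate early gene of the same list, was no member. Its mean was 53.5 CPM in VQ-D1 and 1025 CPM in VQ-D4, against 63.8 CPM in VQ-D2 and 168 CPM in VQ-D5. Of 18 immediate early and dissociation stress genes, 0 were members, and their median log2 difference was 1.03. That median came from VQ-D4, at 2.07 against VQ-D2 and 2.01 against VQ-D5, while VQ-D1 was at -0.0044 against VQ-D2 and 0.18 against VQ-D5. The part of these stress genes in the ERK values was not tested. Among 30 RAS pathway genes, 7 were higher in VQ-D1 and VQ-D4 and 4 in VQ-D2 and VQ-D5, and 2 of the 4 lie off chromosomes 3 and 5. The shares over all tested genes were 10.6% and 12.5%. Rasgrp2, a RAP and RAS exchange factor, had 1.08 to 11 CPM (median 5.4) in VQ-D1 and VQ-D4, against 20.9 to 37.6 CPM (median 26.4) in VQ-D2 and VQ-D5. Ptpn11, the phosphatase SHP2 that acts upstream of RAS and lies on chromosome 5, differed by -1.05 (SE 0.0803). Myc was no member, because the order of lines crossed the sides. Its mean was 592 CPM in VQ-D1 and 1375 CPM in VQ-D4, against 3478 CPM in VQ-D2 and 1163 CPM in VQ-D5, and the labels do not say how reads of the transgene were counted.

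Several genes of the amino acid and folding stress responses were higher in VQ-D1 and VQ-D4. Of 24 ATF4 target and amino acid genes, 7 were higher in VQ-D1 and VQ-D4 and 0 in VQ-D2 and VQ-D5, with a median of 0.75. Relative to the controls, the list's mean log2 level was 0.43 to 2.38 in VQ-D1 and VQ-D4, against -0.43 to 0.61 in VQ-D2 and VQ-D5. By line pair the median was 0.29 for VQ-D1 minus VQ-D2 and -0.0045 for VQ-D1 minus VQ-D5, against 1.36 for VQ-D4 minus VQ-D2 and 1.37 for VQ-D4 minus VQ-D5. The immediate early and dissociation stress genes were high in VQ-D4 too, and their part in this result was not tested. Chac1 was at 57.3, 32.9, 18.5 and 20.1 CPM in the VQ-D1 libraries and 202, 405, 437 and 218 CPM in the VQ-D4 libraries, against 2.83, 8.4, 3.3 and 15.7 CPM in the VQ-D2 libraries and 0.958, 2.75, 2.49 and 4.43 CPM in the VQ-D5 libraries. Chac1 (chromosome 2, 119351242 to 119354326) encodes a glutathione-degrading enzyme induced by ATF4. It differed by 4.43 (SE 0.46), with VQ-D4 far above VQ-D1. Mean FPKM of Chac1 was 21.19 in VQ-D1, 195.5 in VQ-D4 and 24.33 in the controls. Slc3a2, the heavy chain of amino acid transporters, had 960.0 to 4277 CPM (median 2515) in VQ-D1 and VQ-D4, against 163 to 259.7 CPM (median 220.1) in VQ-D2 and VQ-D5. Slc7a3, a transporter of cationic amino acids, differed by 4.57 (SE 0.51), and Sesn2, a leucine sensor that restrains mTORC1, by 2.41 (SE 0.19). The C/EBP-ATF response element, searched as TGATGNAA, was found in 2 of the 6 members with a window (33.3%). The element occurred in 2.31% of all tested genes and in 2.23% of all members higher in VQ-D1 and VQ-D4. It is shown for Chac1 and for Asns, the asparagine synthetase gene, which had 206 to 465 CPM (median 309) in VQ-D1 and VQ-D4, against 88.8 to 173 CPM (median 119.6) in VQ-D2 and VQ-D5.
Chac1, chr2:119351025-119351080, plus strand: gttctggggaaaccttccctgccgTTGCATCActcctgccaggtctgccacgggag
Asns, chr6:7693210-7693256, minus strand: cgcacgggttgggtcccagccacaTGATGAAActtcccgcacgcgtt
Of 30 endoplasmic reticulum folding genes, 10 were higher in VQ-D1 and VQ-D4 and 2 in VQ-D2 and VQ-D5. Relative to the controls, the list's mean log2 level was -0.060 to 0.36 in VQ-D1 and VQ-D4, against -0.59 to -0.0086 in VQ-D2 and VQ-D5. Ddit3, the stress factor CHOP, had 10.2 to 55.9 CPM (median 26.9) in VQ-D1 and VQ-D4, against 2.54 to 6.16 CPM (median 3.28) in VQ-D2 and VQ-D5. Mean FPKM of Ddit3 was 54.27 in the controls, against 18.9 in VQ-D1 and 43.07 in VQ-D4. For Ern1 the controls were lower, at 89.71 FPKM against 111.9 in VQ-D1 and 112.3 in VQ-D4. Ern1, the sensor IRE1, differed by 1.43 (SE 0.22), and Ssr4, part of the translocon complex, by 1.48 (SE 0.0976). The chaperone gene Hspa5 was among the 2 of opposite direction, with -0.44 (SE 0.0934), and its libraries overlapped between the sides.

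**Figure D5:**
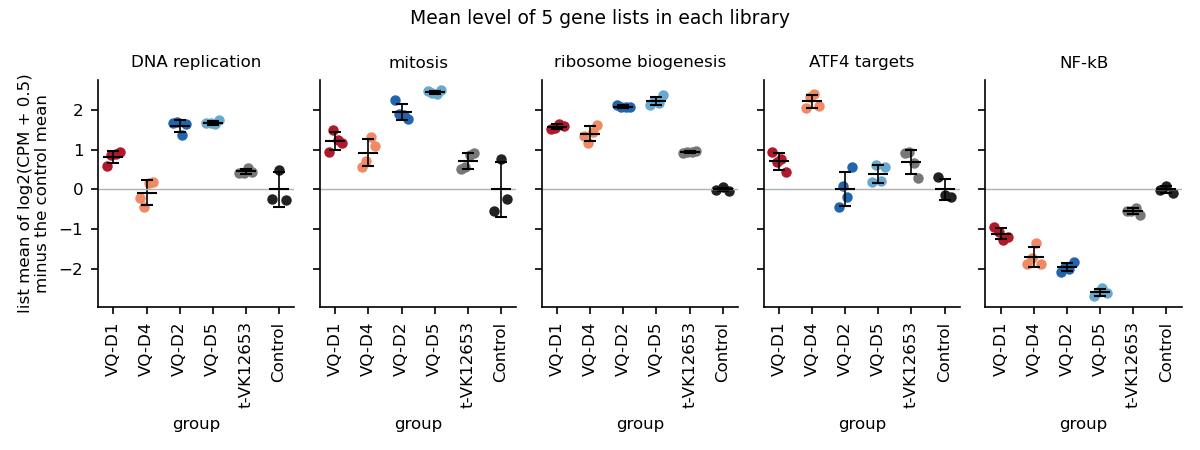
Mean log2 level of 5 gene lists in each library, relative to the control mean. Points are libraries, and bars are the mean and SD of each group. The DNA replication, mitosis and ribosome biogenesis lists are higher in every VQ-D2 and VQ-D5 library than in any VQ-D1 or VQ-D4 library. The ATF4 and NF-kB lists overlap between the sides, and VQ-D4 is highest for ATF4.

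The mean log2 level of the NF-kB list, relative to the control mean, was -1.86 to -0.94 in VQ-D1 and VQ-D4, against -2.68 to -1.82 in VQ-D2 and VQ-D5. Single genes of the list did not all lie below the controls: Icam1, an adhesion molecule gene, was at 114 to 137 CPM in VQ-D1, against 37.8 to 44.4 CPM in the controls. Of 23 tested genes, 5 were higher in VQ-D1 and VQ-D4 (Relb, Tnfaip3, Icam1, Birc3 and Tnip1) and 0 in VQ-D2 and VQ-D5, with a median of 0.71. Tnfaip3 was at 165, 128, 96.7 and 106 CPM in the VQ-D1 libraries and 12.3, 3.25, 20.1 and 3.52 CPM in the VQ-D4 libraries, against 3.13, 4.2, 3.1 and 5.61 CPM in the VQ-D2 libraries and 0.958, 1.38, 0.655 and 0.933 CPM in the VQ-D5 libraries. Tnfaip3 encodes A20, the deubiquitinase that ends NF-kB signalling. The 4 VQ-D1 libraries were above 90 CPM, while VQ-D4 overlapped VQ-D2, and the side difference was 4.02 (SE 0.34). Relb, a subunit of the non-canonical pathway, had 5.67 to 38 CPM (median 19.1) in VQ-D1 and VQ-D4, against 0 to 2.37 CPM (median 1.43) in VQ-D2 and VQ-D5. Of 23 p53 pathway genes, 4 were higher in VQ-D1 and VQ-D4 (Gadd45a, Sesn2, Gadd45b and Bbc3) and 0 in VQ-D2 and VQ-D5. The shares over all tested genes were 10.6% and 12.5%. Sesn2 is also counted in the ATF4 list and Bbc3 in the BCL2 family, so this list is not separate from those. Gadd45a, a stress and DNA damage gene, differed by 4.98 (SE 0.41), and Bbc3, the death gene PUMA, by 1.11 (SE 0.13). Trp53 itself was no member.

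Members of the BCL2 family differed in both directions. Bcl2l1 was at 87.9, 92.4, 84.3 and 94.2 CPM in the VQ-D1 libraries and 50.6, 56.8, 59.7 and 41.9 CPM in the VQ-D4 libraries, against 2.83, 4.49, 8.34 and 4.96 CPM in the VQ-D2 libraries and 2.4, 2.98, 3.27 and 2.1 CPM in the VQ-D5 libraries. Bcl2l1 encodes the survival protein BCL-XL, and its log2 difference was 4.24 (SE 0.28). Bcl2l11 was at 9.87, 8.9, 18.6 and 18.8 CPM in the VQ-D1 libraries and 27.6, 50.3, 24 and 12.8 CPM in the VQ-D4 libraries, against 139.8, 98.9, 128 and 107 CPM in the VQ-D2 libraries and 144, 116, 152 and 126 CPM in the VQ-D5 libraries. Bcl2l11 encodes the death protein BIM, which BCL-XL binds, and it differed by -2.86 (SE 0.18). The sides did not overlap for either gene. Over the 13 tested genes of the family, 3 were higher in VQ-D1 and VQ-D4 and 2 in VQ-D2 and VQ-D5. The shares over all tested genes were 10.6% and 12.5%. Bbc3, counted among the p53 pathway genes, is in this count too.

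In cytokine signalling, 6 of 29 receptor and JAK-STAT genes were higher in VQ-D1 and VQ-D4 and 2 in VQ-D2 and VQ-D5. Over all tested genes the shares of members were 10.6% and 12.5%. Jak2 differed by 1.92 (SE 0.11) and Stat3, the main transducer of IL-6, by 0.90 (SE 0.0785). Jak1, a kinase bound to gp130, was in the opposite direction at -2.39 (SE 0.13), as was Socs2 above. The WNT and TGF-beta list held 6 members higher in VQ-D1 and VQ-D4 and 5 higher in VQ-D2 and VQ-D5 among 32. These counts stand beside the same 10.6% and 12.5%, and whether the list differs from them was not tested. The ligand gene Tgfb1 differed by 2.95 (SE 0.18). The receptor gene Tgfbr2 differed by -5.45 (SE 0.21), with 0 to 3.46 CPM (median 1.06) in VQ-D1 and VQ-D4, against 16.3 to 66.2 CPM (median 38.5) in VQ-D2 and VQ-D5. The Notch ligand gene Jag2 had 0.324 to 2.56 CPM (median 1.17) in VQ-D1 and VQ-D4, against 6.98 to 46.2 CPM (median 23.3) in VQ-D2 and VQ-D5, and the receptor gene Notch2, on chromosome 3, differed by -1.78 (SE 0.17).

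The RNA of the CD138 gene itself differed between the sides. Of 25 tested plasma cell surface genes, 7 were higher in VQ-D1 and VQ-D4 and 3 in VQ-D2 and VQ-D5. The shares over all tested genes were 10.6% and 12.5%. Sdc1 was at 854, 774, 755 and 808 CPM in the VQ-D1 libraries and 1300.2, 767, 1072 and 979.6 CPM in the VQ-D4 libraries, against 252, 372, 294 and 406 CPM in the VQ-D2 libraries and 333, 376, 379 and 413 CPM in the VQ-D5 libraries. Sdc1 encodes CD138, the protein by which the cells were sorted, so its RNA was read among cells already chosen for it. It differed by 1.44 (SE 0.18), and the sides did not overlap. Cd44, a hyaluronan receptor, had 373 to 565 CPM (median 506) in VQ-D1 and VQ-D4, against 100.3 to 286 CPM (median 239.7) in VQ-D2 and VQ-D5. Ly6c2, a close relative of Ly6c1 with which it may share reads, differed by 4.34 (SE 0.58). Crbn, the cereblon gene through which lenalidomide acts, had 95.9 to 144 CPM (median 109.8) in VQ-D1 and VQ-D4, against 202 to 349.9 CPM (median 260.2) in VQ-D2 and VQ-D5. Tnfrsf17, which encodes BCMA, was no member.

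Among 33 transcription factors of plasma and B cells, 7 were higher in VQ-D1 and VQ-D4 and 5 in VQ-D2 and VQ-D5. The shares over all tested genes were 10.6% and 12.5%. Of the 5, 3 lie off chromosomes 3 and 5. Irf4, which plasma cells and myeloma require, had 1912 to 2581 CPM (median 2146) in VQ-D1 and VQ-D4, against 1023 to 1377 CPM (median 1239) in VQ-D2 and VQ-D5. Mef2b, a germinal-centre factor, had 49 to 156 CPM (median 74.3) in VQ-D1 and VQ-D4, against 0.149 to 8.97 CPM (median 1.67) in VQ-D2 and VQ-D5, and Pou2f2, the octamer factor OCT2, had 24.8 to 51.4 CPM (median 38.1) in VQ-D1 and VQ-D4, against 2.75 to 17.7 CPM (median 8.38) in VQ-D2 and VQ-D5. Bach2, which holds back plasma cell differentiation, had the opposite direction with 0 to 3.4 CPM (median 0.322) in VQ-D1 and VQ-D4, against 9.56 to 59.2 CPM (median 38.7) in VQ-D2 and VQ-D5. Ikzf3, the Aiolos gene, differed by -1.78 (SE 0.25), and Bhlha15, the secretory factor MIST1 on chromosome 5, by -1.89 (SE 0.10). Xbp1 and Prdm1 were no members. Fam46c, a gene often deleted in human myeloma, lies on chromosome 3 and was higher in VQ-D1 and VQ-D4 all the same, with 706 to 916 CPM (median 820.0) in VQ-D1 and VQ-D4, against 207 to 354 CPM (median 276) in VQ-D2 and VQ-D5.

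Antigen presentation differed at a few genes. Cd74 was at 3081, 3192, 2318 and 2254 CPM in the VQ-D1 libraries and 2695, 1479.6, 2734 and 1702 CPM in the VQ-D4 libraries, against 33.6, 94.6, 43.4 and 89.3 CPM in the VQ-D2 libraries and 4.07, 11.7, 3.8 and 4.78 CPM in the VQ-D5 libraries. Cd74 (chromosome 18, 60803849 to 60812652) encodes the invariant chain of MHC class II, and its log2 difference was 6.87 (SE 0.30). VQ-D2 was also above VQ-D5. Mean FPKM of Cd74 was 2378 in the controls, 1972 in VQ-D1 and 1469 in VQ-D4. Of 10 class II genes, Cd74 was the 1 member higher in VQ-D1 and VQ-D4 and H2-Eb2 the 1 higher in VQ-D2 and VQ-D5. In the class I list, B2m, H2-D1, H2-T23 and Tapbp were higher in VQ-D1 and VQ-D4 and Psmb10, Calr and Pdia3 higher in VQ-D2 and VQ-D5, of 18 tested. B2m, the light chain of class I, had 879.5 to 2188 CPM (median 1683) in VQ-D1 and VQ-D4, against 269.8 to 669.6 CPM (median 495) in VQ-D2 and VQ-D5. The H2 genes are similar in sequence, so their counts may be shared between them. Cd52, a lymphocyte surface glycopeptide, had 311 to 619 CPM (median 488) in VQ-D1 and VQ-D4, against 2.4 to 24.6 CPM (median 6.45) in VQ-D2 and VQ-D5. The checkpoint ligand gene Cd274, which encodes PD-L1, had 119 to 244 CPM (median 186) in VQ-D1 and VQ-D4, against 14.5 to 56.5 CPM (median 35) in VQ-D2 and VQ-D5. Of 17 checkpoint genes, 5 were higher in VQ-D1 and VQ-D4 and 2, Ctla4 and Cd276, in VQ-D2 and VQ-D5. The shares over all tested genes were 10.6% and 12.5%.

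The summed level of 17 monocyte and macrophage genes was 68.3 to 197 CPM in VQ-D1 and VQ-D4, against 17.8 to 102 CPM in VQ-D2 and VQ-D5 and 404 to 1433 CPM in the controls. Of 12 tested genes of that list, Mrc1 and C1qb were members, while Csf1r stayed at or below 2.60 CPM in the mean of each VQ line. The summed level of 10 B cell genes was 155 to 385 CPM in VQ-D1 and VQ-D4, against 66.6 to 379 CPM in VQ-D2 and VQ-D5. The part of such cells in the surface and antigen presentation differences was not tested. The erythroid list was lower in VQ-D1 and VQ-D4, at 82.6 to 169 CPM against 190 to 469 CPM in VQ-D2 and VQ-D5. Most of it was the transferrin receptor gene Tfrc, which dividing cells also use. Tfrc had 56.4 to 156 CPM (median 85) in VQ-D1 and VQ-D4, against 175 to 422 CPM (median 268) in VQ-D2 and VQ-D5, and the globin genes averaged 3.06 CPM or less in each VQ line. Trf was at 92.5, 89, 49.5 and 39.4 CPM in the VQ-D1 libraries and 115, 70.1, 48 and 74.5 CPM in the VQ-D4 libraries, against 2972, 3722, 2968 and 2743 CPM in the VQ-D2 libraries and 1429.5, 1557, 1366 and 1182 CPM in the VQ-D5 libraries. Trf encodes transferrin, the iron carrier that this receptor takes up. It was chosen after its values were seen, and differed by -4.90 (SE 0.21).

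Chromatin genes included a large difference at the Polycomb enzyme. Ezh2 was at 4.2, 0.824, 1.74 and 0.697 CPM in the VQ-D1 libraries and 0.504, 0, 1.3 and 0 CPM in the VQ-D4 libraries, against 103, 99.4, 88.1 and 81.1 CPM in the VQ-D2 libraries and 12.9, 25, 24.5 and 26.5 CPM in the VQ-D5 libraries. Ezh2 (chromosome 6, 47530274 to 47595270) encodes the histone H3 lysine methyltransferase of PRC2, and it differed by -5.49 (SE 0.32). VQ-D1 and VQ-D4 also lay far below t-VK12653 and the controls, with 58.7, 67.9, 47.2 and 67.2 CPM in the t-VK12653 libraries, against 39.9, 60.7 and 40.7 CPM in the controls. Of 29 PRC2 and histone methylation genes, 4 were higher in VQ-D1 and VQ-D4 and 8 in VQ-D2 and VQ-D5. The shares over all tested genes were 10.6% and 12.5%. Of the 8, 5 lie off chromosomes 3 and 5. Bmi1, a subunit of the partner complex PRC1, had 124 to 294 CPM (median 197) in VQ-D1 and VQ-D4, against 601 to 886 CPM (median 701) in VQ-D2 and VQ-D5. Whsc1, the methyltransferase gene activated by a recurrent translocation in human myeloma, lies on chromosome 5 and differed by -1.27 (SE 0.11). In metabolism, sterol and fatty acid synthesis genes had 2 members higher in VQ-D1 and VQ-D4 and 7 higher in VQ-D2 and VQ-D5 among 31, and 3 of the 7 lie off chromosomes 3 and 5. Scd2, a desaturase, differed by 2.46 (SE 0.24), and Fads2, another desaturase, by -4.30 (SE 0.30). The clock gene Arntl differed by 3.03 (SE 0.19) and its paralogue Arntl2 by -3.04 (SE 0.45). In adhesion, the integrin gene Itgb2 had 92.1 to 221 CPM (median 131) in VQ-D1 and VQ-D4, against 8.21 to 45 CPM (median 24.7) in VQ-D2 and VQ-D5.

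The MYC-only line and the normal plasma cells took no part in choosing the members beyond the spread and tissue terms of the shared fit, so the difference between them could be tested. Of all tested genes, 28.8% rose and 28.1% fell in t-VK12653 against control (edgeR's quasi-likelihood test, Benjamini-Hochberg adjusted p under 0.05). The summed level of the neutrophil genes was 8.28 to 161 CPM in t-VK12653 and 3316 to 9207 CPM in the controls, that of the monocyte and macrophage genes 112 to 168 CPM in t-VK12653 and 404 to 1433 CPM in the controls, and that of the B cell genes 241 to 250 CPM in t-VK12653 and 900 to 1293 CPM in the controls. The part of these cells in the difference was not tested. Of the members higher in VQ-D1 and VQ-D4, 573 rose (41.9%) and 272 fell (19.9%). Of the members higher in VQ-D2 and VQ-D5, 391 rose (24.3%) and 588 fell (36.5%). The members thus leaned in t-VK12653 the way they lay in VQ-D1 and VQ-D4. The shares off chromosomes 3 and 5 were 41.7% and 19.6%, and 26% and 38.5%. Chromosomes 7, 8 and 14, where the median gene of t-VK12653 was at 0.85, -0.82 and -0.79, were not left out. Members higher in VQ-D1 and VQ-D4, against those higher in VQ-D2 and VQ-D5, numbered 145 and 61 on chromosome 7. They numbered 13 and 124 on chromosome 8, and 43 and 34 on chromosome 14. The part of these chromosomes in the shares was not tested. Among the genes shown above, Ly6d rose by 2.35 (SE 0.16, adjusted p = 1.08e-10) and Chst1 by 1.54 (SE 0.26, adjusted p = 8.44e-05) on the log2 scale in edgeR's test. Epha7 rose to 92.4, 82, 127 and 126 CPM in the t-VK12653 libraries, against 0, 1.02 and 1.05 CPM in the controls. Against that, Plxna4 fell, at a log2 value of -5.10 (SE 0.55, adjusted p = 3e-07) in edgeR's test, although it was higher in VQ-D1 and VQ-D4.

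Of the genes higher in VQ-D2 and VQ-D5, Socs2 fell in t-VK12653 at a log2 value of -4.33 (SE 0.50, adjusted p = 6.45e-07), and Mfsd1 at -7.26 (SE 0.40, adjusted p = 2.71e-12), both by edgeR. Jak1 fell as well, by edgeR at -8.37 (SE 0.30, adjusted p = 8.29e-15). Tgfbr2 fell to 0, 0.188, 0 and 0 CPM in the t-VK12653 libraries, against 115, 150.1 and 140.0 CPM in the controls. Zfhx4 went the other way and rose to 10.1, 10.9, 13.6 and 14.8 CPM in the t-VK12653 libraries, against 0.648, 0.341 and 0.525 CPM in the controls. The replication genes held 12 that rose and 2 that fell among 32, the mitosis genes 9 that rose and 0 that fell among 30, and the ribosome biogenesis genes 25 that rose and 0 that fell among 28, beside 28.8% that rose and 28.1% that fell over all tested genes. Nras rose by 0.45 (SE 0.14, adjusted p = 0.00755) by edgeR in the line without the Nras allele.

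The level of t-VK12653 was nearer to VQ-D1 and VQ-D4 than to VQ-D2 and VQ-D5 for 1063 of the 1366 members higher in VQ-D1 and VQ-D4 (77.8%) and for 1260 of the 1609 others (78.3%). For the controls these numbers were 879 (64.3%) and 1023 (63.6%). The level of t-VK12653 was above all 4 VQ lines for 529 of the 1366 members and below all 4 for 76. Of the 1609 others, it was below all 4 lines for 573 and above all 4 for 88. The control level was above all 4 lines for 342 of the 1366 and below for 159. Of the 1609, it was below all 4 lines for 519 and above for 199. All these positions were counted for members only. Whether they differ from those of all tested genes was not tested.

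Within each side the lines also differed from each other. VQ-D1 against VQ-D4 gave adjusted p under 0.05 for 41.2% of all tested genes in edgeR's test. VQ-D2 against VQ-D5 gave 4970 genes (38.6%), and 3115 when counts were summed per recipient as the file names give it. Each contrast within a side is a combination of the 4 line pairs that chose the members, so the members' own values are a description. The log2 difference of VQ-D1 minus VQ-D4 was 1.88 ± 0.28 (SE) for Chst1 and -3.13 ± 0.50 for Chac1. The log2 difference of VQ-D2 minus VQ-D5 was 1.95 ± 0.28 for Ezh2 and 3.52 ± 0.41 for Cd74. Each of these lines has 1 donor, so the tests over all genes show that the libraries of 2 tumours differ.

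Few genes passed the test between the sites from which the cells were taken. By the file names, libraries of different sites often came from the same recipient. The fit held no recipient term, so this pairing was not used, and a paired test was not run. With line and tissue in the same fit, spleen against bone marrow gave 0 genes at an adjusted p under 0.05 in edgeR (0%), with 829 at an unadjusted p under 0.05, and DESeq2 gave 41. Without VQ-D1 replicate 3, edgeR gave 22. Lymph node against bone marrow gave 2 genes (0.0155%) in edgeR, 7 without VQ-D1 replicate 3, and 40 in DESeq2. The 1 member among the 2 was Fcrla, a B cell protein, lower in lymph node by a log2 value of -1.37 (adjusted p = 0.0105, edgeR). The sides were unevenly sampled, since VQ-D1 had no lymph node, VQ-D2 no bone marrow and VQ-D5 no spleen library. The liver library is the only one of its tissue, so the tissue term fits it exactly and it adds nothing to the differences, although its CPM values are within the ranges given.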

How the data were processed

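CD138+B220- cells of 23 libraries were profiled by stranded total RNA sequencing, per the labels' protocols. The authors deposited 1 table per library with a read count, FPKM and TPM for each of 24063 gene symbols, per the file headers. The submitters' processing notes name STAR, featureCounts, DESeq2 and GRCm38 (mm10); neither these notes nor the labels give the annotation, the versions or the strand setting, so reads of overlapping antisense genes cannot be told apart. The counts were used, and the deposited FPKM and TPM entered no test. The labels do not give recipients; the file names point to 2 per tumour line, which were used in an alternative. Libraries of 1 recipient are not independent animals, so p-values measure the spread between libraries.

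The counts were fitted with edgeR 4.0.16 in R 4.3.3 (robust quasi-likelihood test, TMM scaling, filterByExpr with a minimum count of 10 and a total of 15, group and tissue terms, all 23 libraries) and p-values were adjusted over 12867 genes by Benjamini-Hochberg. Replicates differed beyond sampling noise in each group. The procedure was tested on simulated data. Libraries with the same replicate number correlated weakly (-0.129 to 0.139), although 8 of 16 libraries correlated best with their own number. The numbers were not taken as pairs, and a replicate block was run as an alternative. Counting intervals and the floor of 3 counts cover counting error only.

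The rule takes the 15 leading members per direction (1 is not reported here), up to 4 members per direction of each gene list, and the controls of the design; at least 20 CPM in the higher lines was asked of the leading genes. Rfc3, Mcm5, Mcm7, Kif11, Cdk1, Nop2, Asns, Etv4, Spred1, Tnip1 and Trf were named after their values were seen. The members, gene lists and tests were chosen with earlier results of these data known. Positions and sequences are from RefSeq tables for GRCm38.p6. DESeq2 1.42.0, other scalings, filters, a replicate block, sums per recipient and leaving out libraries were tried as alternatives.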

Additional observations from a re-analysis of the deposited data

Results flagged for a closer look

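In 9 of 165 groups of 4 libraries checked, 1 library stood apart from the other 3 by more than Dixon's 95% critical value, and chance alone gives about 1 in 20. Of these, 3 were single low readings in genes almost silent in the line: Zfhx4 at 0.247 CPM in VQ-D1 replicate 1 and 0.126 CPM in VQ-D4 replicate 1, and Mfsd1 at 0.324 CPM in VQ-D4 replicate 3, with the other 3 libraries at 0. Socs2 was highest in VQ-D1 replicate 3, at 1.84 CPM, a level far below every VQ-D2 and VQ-D5 library. Ezh2 was lowest in VQ-D5 replicate 1, at 12.9 CPM, still above every VQ-D1 and VQ-D4 library. Cdc20 was highest in VQ-D2 replicate 1, at 118 CPM. Cd74 was highest in VQ-D5 replicate 2, at 11.7 CPM. The relative chromosome 8 median was lowest in VQ-D5 replicate 1, at a log2 value of 0.00898. The DNA replication list was lowest in VQ-D2 replicate 3, at 1.37 on the log2 scale above the control mean, which is above every VQ-D1 and VQ-D4 library.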

How the results depend on the processing

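No gene was a member in the opposite direction under any alternative run, and no named member changed direction. Direction was not checked for named genes that were no members. Of the side differences of named genes under the alternatives, 7392 shifted by less than the gene's mean SD within the lines. The other 118 shifted by that SD or more. With the replicate block there were 1250 members higher in VQ-D1 and VQ-D4 and 1546 higher in VQ-D2 and VQ-D5, and the block gave 24 spleen and 5 lymph node genes; 8 of 16 libraries correlated best with their own number. Scaling from genes off chromosomes 3, 5, 8 and 15, chosen after seeing the data, moved the median of all genes by -0.0994 and gave 1089 and 1931 members. Asking for at least 2-fold in all 4 pairs left 584 and 666 members, and leaving out chromosomes 3 and 5 left 1062 higher in VQ-D2 and VQ-D5. Counts summed per recipient, as file names give recipients, gave 1060 and 1326 members, and 3115 genes between VQ-D2 and VQ-D5. The tissue counts moved most: without the filter 218 spleen and 264 lymph node genes were called, and by DESeq2 41 and 40. Leaving out 1 library in turn gave 1220 to 1435 members higher in VQ-D1 and VQ-D4, 1439 to 1660 higher in VQ-D2 and VQ-D5, 0 to 22 spleen genes (22 without VQ-D1 replicate 3), 0 to 7 lymph node genes (7 without VQ-D1 replicate 3), 6829 to 7350 genes for t-VK12653 against control, 4012 to 5505 for VQ-D1 against VQ-D4 and 4223 to 5181 for VQ-D2 against VQ-D5. The causes of these changes were not tested. Depth limits genes with a few reads on 1 side, for which only the reads and counting intervals bear on the fold.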
